A study of Mus musculus with 9 samples.

Results

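The 10 genes Cd52, Itgax, Clec7a, Axl, Cd68, Cst7, Gpnmb, Lyz2, Spp1 and Lpl were described across the substantia nigra libraries of a mouse model of Parkinson disease. They were taken by symbol as genes that microglia express when activated, with earlier results of these data known. All 10 matched a row among the 55335 genes of the expression table. The substantia nigra is the midbrain region whose dopaminergic neurons are lost in Parkinson disease, and MPTP is a toxin whose active form enters those neurons and poisons their mitochondria. RNA was sequenced in 9 libraries, 3 per group. Vehicle mice received saline injections 2 times per week for 5 weeks. MPTP mice received MPTP at 20 mg/kg into the peritoneum on the same schedule, and MPTP+exercise mice received the same injections and had access to a running wheel for 2 months, starting after the first injection. The labels give no strain, age or sex, and no group ran without the toxin. The design text speaks of 3 mice per group but does not say that each library is 1 mouse, and p-values cover only the spread among libraries.

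Microglia, the resident macrophages of the brain, keep a resting programme marked by genes such as P2ry12 and Tmem119. Around plaques, dying neurons or damaged myelin, part of them pass to a state known as disease-associated microglia, which lowers resting genes and raises genes for phagocytic receptors (Axl, Clec7a, Itgax), lysosomal proteins (Cd68, Cst7, Gpnmb) and secreted or lipid-handling proteins (Spp1, Lpl, Lyz2). The receptor Trem2 with its adaptor Tyrobp is required for the full transition. Several of the 10 genes are not restricted to microglia: Spp1 is made by some neurons, Lpl by oligodendrocyte precursors, Axl by astrocytes and vessels, and Lyz2 and Cd52 by blood leukocytes.

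Values are FPKM, fragment counts scaled to transcript length and to the size of the library. Differences are between group means of log2(FPKM + 1), a scale that understates the change of low genes. Testing was restricted to genes averaging 0.5 FPKM or more across libraries, which left 15997 genes and 6 of the 10 (Cd52, Axl, Cd68, Lyz2, Spp1 and Lpl). Itgax, Clec7a, Cst7 and Gpnmb lay below that level and have only the exact two-sided permutation test of 3 libraries against 3, whose smallest possible p is 0.1. The steps between low FPKM values place the libraries at roughly 22340000 to 27080000 fragments. At that depth, and if FPKM was computed over the union of a gene's exons, Cst7 rested on about 1 to 5 fragments per library, Itgax on 0 to 13, Clec7a on 6 to 25, Gpnmb on 19 to 90, Cd52 on 14 to 56 and Lyz2 on 223 to 354. In bulk tissue, fewer cells of a type and less RNA per cell cannot be told apart.

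The libraries held microglia transcripts throughout. P2ry12 ranged from 4.26 to 12.5 FPKM and Tmem119 from 5.82 to 8.54, and the summed level of 12 resting microglia genes was 93.1 to 118 FPKM in vehicle, 103 to 125 in MPTP and 95.0 to 117 in MPTP+exercise libraries. The dopaminergic markers varied within groups: Th, the rate-limiting enzyme of dopamine synthesis, ranged from 1.64 to 15.6 FPKM, and the dopamine transporter Slc6a3 from being listed at 0 in MPTP+exercise replicate 2 to 14.4 in MPTP replicate 3. Ttr, which marks choroid plexus, ranged from 18.5 FPKM in MPTP+exercise replicate 2 to 2010 in MPTP replicate 3. Libraries of the same group correlated across genes at 0.966 to 0.982 (9 pairs) and libraries of different groups at 0.956 to 0.981 (27 pairs).

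Of the 10 genes, Cd52 separated the groups most clearly: its mean FPKM was 2.65 times the vehicle mean in MPTP mice and 1.99 times in MPTP+exercise mice. Lyz2 was lower in MPTP+exercise than in MPTP libraries without overlap, and Lpl was lower in every vehicle library than in any library of mice given the toxin. Axl and Cd68 were near the same level in all groups, Spp1 varied more within groups than between them, and Itgax, Cst7, Clec7a and Gpnmb averaged under 0.5 FPKM. No gene of the 10 passed the test over all genes (limma with Benjamini-Hochberg adjustment, threshold 0.05) in any comparison. Of all 15997 genes, 2 (0.0125%) passed it in MPTP against vehicle and 0 (0%) in each of the other comparisons.

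**Figure D1:**
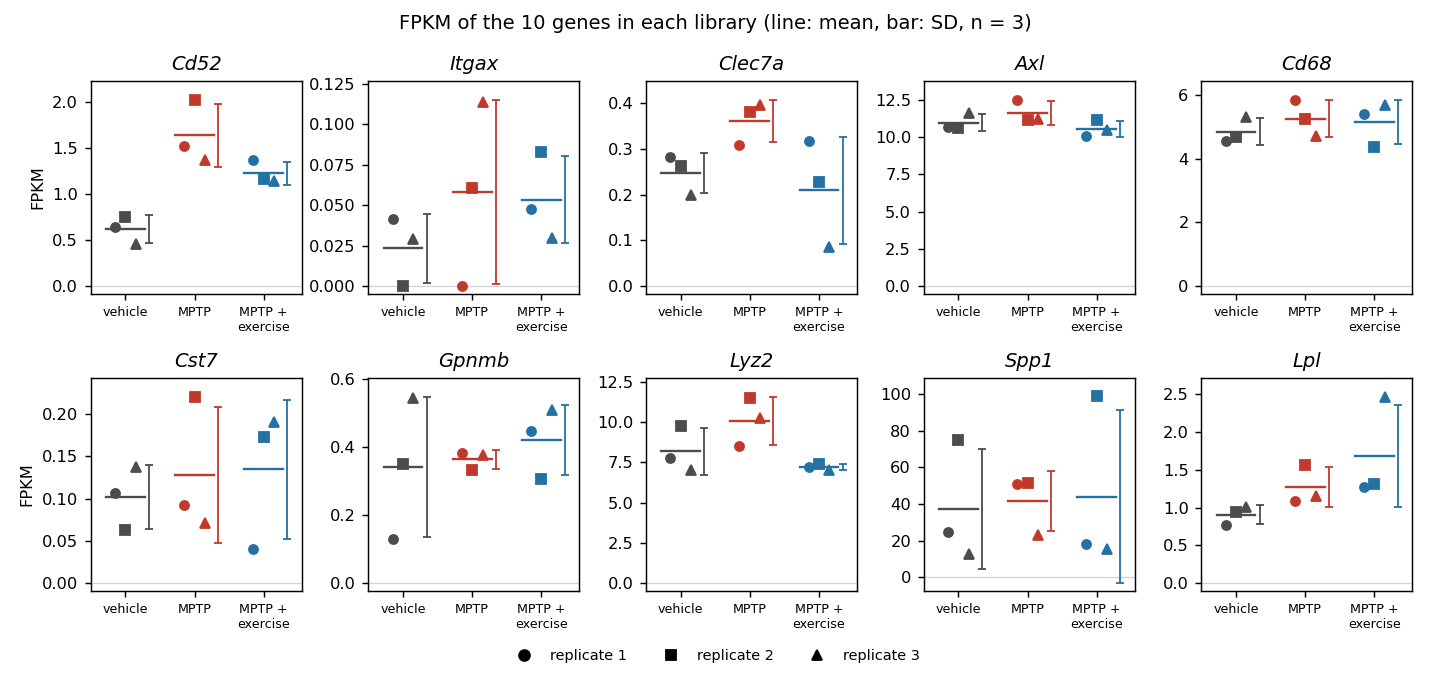
FPKM (linear vertical axes, each panel with its own scale) of the 10 genes in the 9 libraries, by group; points are libraries, with a symbol per replicate, horizontal lines are group means and bars are SD (n = 3). Cd52 is above 1 FPKM in all MPTP and MPTP+exercise libraries and below it in all vehicle libraries, and Spp1 shows 1 library far above the others in the vehicle and MPTP+exercise groups.

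By level, Spp1 was first, with a median of 24.8 FPKM over the 9 libraries, followed by Axl at 11.1, Lyz2 at 7.75 and Cd68 at 5.23. Cd52 (1.16) and Lpl (1.15) followed, and then Gpnmb (0.378), Clec7a (0.282), Cst7 (0.106) and Itgax (0.0413). Neighbours in this order overlapped over the libraries for Axl with Lyz2, Cd52 with Lpl, Gpnmb with Clec7a, Clec7a with Cst7 and Cst7 with Itgax, and did not overlap elsewhere. The genes that define the disease-associated state most sharply in other models, Itgax, Clec7a and Cst7, were thus the 3 lowest of the 10, while Trem2 was at 1.35 to 2.54 FPKM and Tyrobp at 10.02 to 23.8.

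Cd52 encodes a very short, heavily glycosylated protein anchored to the surface of leukocytes by a lipid. It lies on chromosome 4 at 134082448 to 134095082, minus strand (GRCm38, ENSMUSG00000000682, protein coding in GENCODE M21). The union of the exons of its 3 annotated transcripts has 1187 bases. Its coding sequence, printed to show how short it is, has 222 bases without the stop codon, or 74 codons. It is read from the minus strand of chr4:134093730-134094984, with the intron removed:
Cd52 coding sequence: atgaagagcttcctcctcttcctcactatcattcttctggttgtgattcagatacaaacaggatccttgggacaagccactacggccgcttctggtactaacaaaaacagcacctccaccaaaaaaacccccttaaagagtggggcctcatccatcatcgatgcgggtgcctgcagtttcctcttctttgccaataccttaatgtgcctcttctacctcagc

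Cd52 stood at 0.643, 0.754 and 0.457 FPKM in vehicle replicates 1 to 3, at 1.53, 2.03 and 1.37 in the MPTP libraries and at 1.37, 1.16 and 1.15 in the MPTP+exercise libraries. All 6 libraries of mice given the toxin lay above all 3 vehicle libraries, and the MPTP and MPTP+exercise groups overlapped. The means were 0.618 ± 0.150, 1.64 ± 0.344 and 1.23 ± 0.127 FPKM (SD, n = 3 each). MPTP exceeded vehicle by 0.70 on the log2 scale (SE 0.12, limma with Benjamini-Hochberg adjusted p = 0.355), which placed Cd52 at rank 12 of 15997 genes by p. The difference was positive in all 17 alternative analyses, from 0.60 to 1.28, with an unadjusted p under 0.05 in 17 and an adjusted p of 0.212 to 0.889. MPTP+exercise exceeded vehicle by 0.46 (SE 0.12, limma adjusted p = 0.753, rank 56, unadjusted p under 0.05 in 17 of 17 alternatives) and lay below MPTP by a difference of -0.24 (SE 0.12, limma adjusted p = 0.9999). The first 2 of these comparisons share the vehicle libraries, and the first and last share the MPTP libraries.

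Counted against the 12 resting microglia genes, Cd52 kept the same pattern: per 100 FPKM of their sum it was 0.691, 0.711 and 0.388 in vehicle, 1.49, 1.63 and 1.24 in MPTP and 1.23, 1.22 and 0.977 in MPTP+exercise libraries. On this ratio the groups did not overlap in any of the 3 comparisons (exact two-sided permutation p = 0.1 each). The neighbouring gene Crybg2 shares 172 exonic bases with Cd52 on the opposite strand and was itself at 0.127 ± 0.0243, 0.116 ± 0.0299 and 0.0569 ± 0.0189 FPKM in the 3 groups. Lymphocytes also express Cd52: of 8 lymphocyte genes, Cd3d was listed at 0 in every vehicle library and did not exceed 0.0490 FPKM elsewhere, and Cd3e did not exceed 0.109. The summed level of the 8 genes was 3.93 to 10.9 FPKM in vehicle, 3.90 to 11.7 in MPTP and 5.23 to 16.1 in MPTP+exercise libraries. Most of it was Trbc2, a T cell receptor segment, at 1.98 to 15.5, and Cd4 was at 0.110 to 2.90.

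The summed levels of other groups of genes were also higher in every MPTP library than in any vehicle library. The summed level of 10 interferon-induced genes was 28.3 to 29.3 FPKM in vehicle, 47.9 to 108 in MPTP and 42.4 to 45.8 in MPTP+exercise libraries. All 9 tested members were higher in MPTP than in vehicle, where 48.1% of all tested genes were higher. Each was at an unadjusted limma p under 0.05 (2.61% of all tested genes were higher at that level), and none passed the adjusted threshold. Ifi27, a mitochondrial interferon-induced protein, was at 10.6 ± 0.633, 25.4 ± 5.25 and 16.2 ± 2.18 FPKM, and Bst2, which tethers budding virus, at 2.23 ± 0.381, 14.2 ± 6.73 and 4.84 ± 1.17. Among the 15 markers of choroid plexus and ependyma, 13 had a higher mean in MPTP than in vehicle (48.1% of all tested genes). Of these, 9 were at an unadjusted limma p under 0.05 (2.61% of all) and none passed the adjusted threshold. Sums of the 15 markers, which were mostly Ttr, were 58.8 to 366, 973 to 2112 and 35.2 to 968 FPKM. The lowest sum, in MPTP+exercise replicate 2, was below that of every vehicle library. No marker of the list was at 0 in all libraries. The ependymal genes Foxj1, Ccdc153, Tmem212, Rarres2 and Dynlrb2 overlapped between MPTP and vehicle, with differences of -0.02 to 0.35, while the choroid plexus genes Kl and Slc4a5 were higher without overlap by 1.91 and 1.44. The part of these groups in the Cd52 difference was not tested.

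Itgax encodes the integrin alpha chain CD11c, which pairs with the beta chain Itgb2 (chromosome 7, 128129547 to 128150657, plus strand). It was at 0.0413 FPKM, listed at 0 and at 0.0288 in vehicle, listed at 0 and at 0.0609 and 0.114 in MPTP, and at 0.0477, 0.0830 and 0.0299 in MPTP+exercise libraries. No group stood apart (exact two-sided permutation p = 0.5 for MPTP against vehicle), and at this depth a change of several fold would rest on a handful of fragments. Itgb2 was at 1.68 ± 0.191, 2.02 ± 0.138 and 1.76 ± 0.235 FPKM, and its ligand Icam1 at 0.463 ± 0.0817, 0.736 ± 0.279 and 0.508 ± 0.230. The MPTP libraries lay above vehicle without overlap for Itgb2 and with overlap for Icam1.

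Clec7a encodes Dectin-1, a receptor for fungal glucans that signals through Syk and Card9 (chromosome 6, 129461591 to 129472779, minus strand). GENCODE M21 annotates it as a polymorphic pseudogene. It was at 0.282, 0.262 and 0.198 FPKM in vehicle, 0.309, 0.381 and 0.395 in MPTP and 0.317, 0.227 and 0.0849 in MPTP+exercise libraries. All MPTP libraries were above all vehicle libraries (difference 0.13, exact two-sided permutation p = 0.1), and MPTP+exercise overlapped both. Per 100 FPKM of resting microglia genes the MPTP and vehicle groups overlapped (exact permutation p = 0.2), and every MPTP+exercise library (0.283, 0.239 and 0.0723) was below every MPTP library (0.301, 0.306 and 0.358; exact permutation p = 0.1). In FPKM the difference of MPTP+exercise from MPTP was -0.18, and with no filter on low genes it had an unadjusted limma p under 0.05 and was not past the adjusted threshold. Syk was at 0.441 ± 0.0531, 0.469 ± 0.0344 and 0.484 ± 0.112 FPKM and Card9 at 1.15 ± 0.0632, 1.28 ± 0.10 and 1.27 ± 0.309, with overlap between all groups.

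Axl is a receptor tyrosine kinase that binds, through the bridging protein Gas6, phosphatidylserine on dying cells (chromosome 7, 25757273 to 25788705, minus strand). It was at 10.7, 10.6 and 11.6 FPKM in vehicle, 12.5, 11.1 and 11.2 in MPTP and 10.1, 11.2 and 10.5 in MPTP+exercise libraries. The groups overlapped in all comparisons, with differences of 0.08 for MPTP against vehicle (SE 0.08, limma adjusted p = 0.991) and -0.12 for MPTP+exercise against MPTP (SE 0.08, adjusted p = 0.9999). Axl had the narrowest range of the 10, its highest library being 1.24 times its lowest. Its ligand Gas6 was at 38.8 ± 4.61 FPKM in vehicle, 47.5 ± 2.72 in MPTP and 37.6 ± 5.00 in MPTP+exercise mice. The MPTP libraries lay above both other groups without overlap, each at an unadjusted limma p under 0.05 (adjusted p = 0.991 and 0.9999). The related receptors Mertk (7.86 ± 1.94, 8.06 ± 1.37 and 7.81 ± 1.69 FPKM) and Tyro3 (20.2 ± 6.57, 21.1 ± 4.97 and 19.5 ± 2.03) overlapped between all groups.

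Cd68 encodes macrosialin, a lysosomal membrane glycoprotein used as a stain for phagocytic microglia (chromosome 11, 69664213 to 69666153, minus strand). It was at 4.55, 4.67 and 5.32 FPKM in vehicle, 5.85, 5.23 and 4.70 in MPTP and 5.41, 4.36 and 5.68 in MPTP+exercise libraries. The groups overlapped widely. The differences were 0.10, -0.03 and 0.07 (SE 0.11 each) for MPTP against vehicle, MPTP+exercise against MPTP and MPTP+exercise against vehicle, and the last 2 changed sign in some alternatives. The general lysosomal membrane protein Lamp1 was likewise at 155 ± 18.1, 162 ± 9.36 and 152 ± 24.5 FPKM.

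Cst7 encodes cystatin F, an inhibitor of cysteine cathepsins such as cathepsin C (chromosome 2, 150570415 to 150578944, plus strand). It was at 0.106, 0.0624 and 0.137 FPKM in vehicle, 0.0929, 0.220 and 0.0706 in MPTP and 0.0403, 0.173 and 0.190 in MPTP+exercise libraries, with wide overlap (exact two-sided permutation p = 0.8 for MPTP against vehicle). Cathepsin C itself, Ctsc, was at 1.65 ± 0.204, 2.32 ± 0.407 and 1.59 ± 0.301 FPKM. MPTP libraries lay above vehicle and above MPTP+exercise libraries without overlap (limma adjusted p = 0.991 and 0.9999, both under 0.05 unadjusted).

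Gpnmb encodes a glycoprotein of lysosomes and melanosomes under the control of MITF family factors (chromosome 6, 49036546 to 49070929, plus strand). It was at 0.131, 0.35 and 0.543 FPKM in vehicle, 0.382, 0.332 and 0.378 in MPTP and 0.446, 0.307 and 0.508 in MPTP+exercise libraries. Vehicle libraries held both the lowest and the highest value, so the groups could not be ordered (exact permutation p = 0.8 for MPTP against vehicle). Mitf was at 1.78 ± 0.227, 1.87 ± 0.389 and 1.46 ± 0.119 FPKM and Tfeb at 1.69 ± 0.374, 1.41 ± 0.129 and 1.37 ± 0.269.

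Lyz2 encodes lysozyme M, the bacterial cell wall hydrolase of macrophages and neutrophils, and sits beside its paralog Lyz1. Lyz2 lies on chromosome 10 at 117277331 to 117282321 and Lyz1 at 117287797 to 117292868, both on the minus strand. To show how far reads of the 2 copies can be told apart, the first 150 coding bases of each are printed, from GENCODE M21 on GRCm38, with capitals at the 14 bases that differ (Lyz2 from chr10:117280792-117282242 and Lyz1 from chr10:117291180-117292838, introns removed):
Lyz2 coding start: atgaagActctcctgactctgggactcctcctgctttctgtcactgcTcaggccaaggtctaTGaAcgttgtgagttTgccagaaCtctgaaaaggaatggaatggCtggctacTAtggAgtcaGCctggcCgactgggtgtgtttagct
Lyz1 coding start: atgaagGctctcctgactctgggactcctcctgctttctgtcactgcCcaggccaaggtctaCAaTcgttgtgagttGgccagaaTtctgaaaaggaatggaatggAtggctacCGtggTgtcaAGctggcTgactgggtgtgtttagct

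Over the 444 coding bases 22 differ (95.0% identity), and 84.6% of the 50-base windows of the Lyz2 transcript (1072 of 1267) have no exact copy in Lyz1. Lyz1 did not exceed 0.138 FPKM in any library. How reads shared between the copies were assigned is not known, and their part in the Lyz2 values was not tested. The promoters are also close. The stretch from 134 to 51 bases before the RefSeq start sites differs at 11 of 84 bases (86.9% identity, capitals mark the differences; RefSeq GRCm38.p6, minus strand, chr10:117282323-117282406 for Lyz2 and chr10:117292919-117293002 for Lyz1):
Lyz2 promoter stretch: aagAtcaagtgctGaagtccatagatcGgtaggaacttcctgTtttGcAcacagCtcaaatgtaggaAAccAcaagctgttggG
Lyz1 promoter stretch: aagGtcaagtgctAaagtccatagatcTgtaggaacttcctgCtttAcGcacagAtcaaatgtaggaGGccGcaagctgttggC

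Lyz2 was at 7.75, 9.79 and 7.01 FPKM in vehicle, 8.52, 11.5 and 10.2 in MPTP and 7.24, 7.42 and 7.02 in MPTP+exercise libraries. Every MPTP library was above every MPTP+exercise library, and vehicle overlapped both. MPTP+exercise differed from MPTP by -0.42 on the log2 scale (SE 0.13, limma adjusted p = 0.9999, rank 165 of 15997 genes). The difference was negative in all 17 alternatives, from -0.53 to -0.33, each with an unadjusted p under 0.05. MPTP differed from vehicle by 0.27 (SE 0.13, limma adjusted p = 0.991) and MPTP+exercise from vehicle by -0.15 (SE 0.13, adjusted p = 0.811). Per 100 FPKM of resting microglia genes Lyz2 was again lower in every MPTP+exercise library (mean 6.75 ± 0.944) than in any MPTP library (8.93 ± 0.540; SD, n = 3 each; exact two-sided permutation p = 0.1).

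Blood and border myeloid genes were low in the same libraries. All 8 neutrophil genes, 3 of them tested, were lower in MPTP+exercise than in MPTP (54.3% of all tested genes were). Their summed levels were 4.79 to 8.31 FPKM in vehicle, 5.35 to 10.2 in MPTP and 0.828 to 2.51 in MPTP+exercise libraries. S100a8, an abundant neutrophil calcium-binding protein, was at 1.16, 1.67 and 1.24 FPKM in MPTP and at 0.337, 0.128 and listed at 0 in MPTP+exercise libraries. Of 12 border macrophage and monocyte genes, 4 of them tested, 11 were lower in MPTP+exercise than in MPTP (54.3% of all tested genes). The 12 summed to 4.69 to 5.12, 5.53 to 6.60 and 3.07 to 3.89 FPKM. Mrc1, the mannose receptor of border macrophages, was at 0.929 ± 0.214, 1.08 ± 0.229 and 0.720 ± 0.164. The part of these cells in the Lyz2 difference was not tested.

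**Figure D2:**
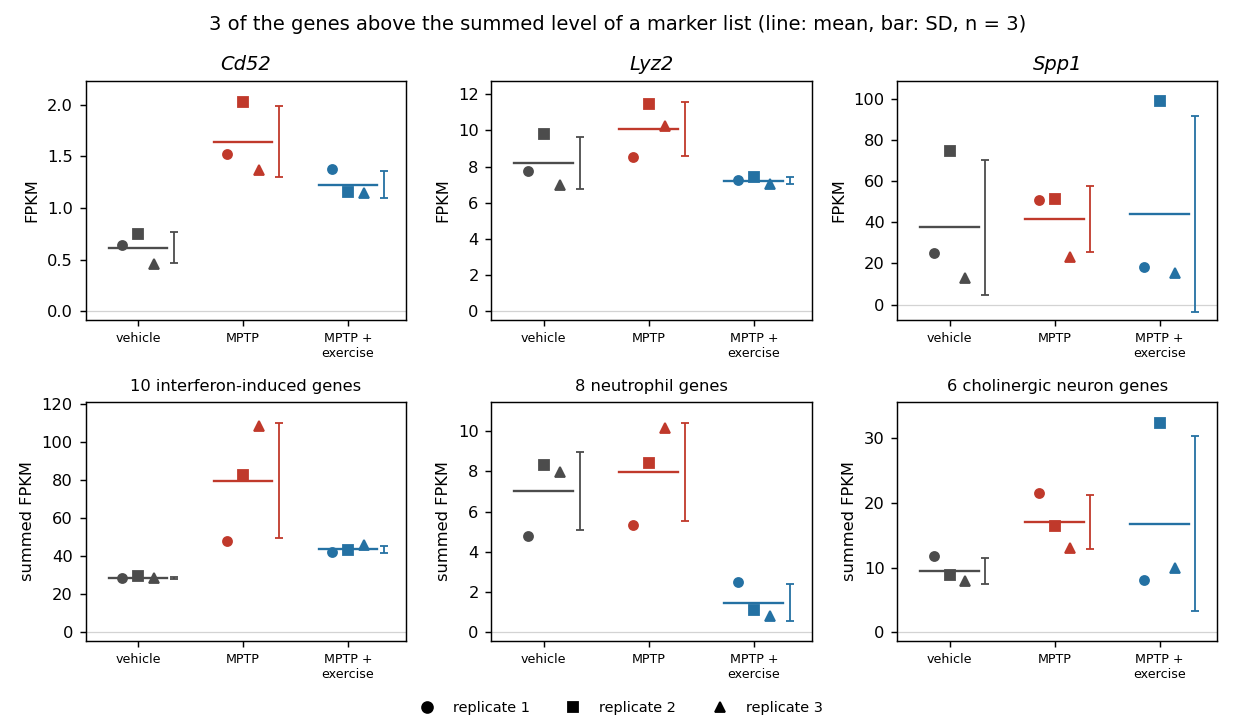
Cd52, Lyz2 and Spp1 (FPKM, upper row) above the summed FPKM of 10 interferon-induced, 8 neutrophil and 6 cholinergic neuron genes (lower row) in the 9 libraries by group; points are libraries, lines are means and bars are SD (n = 3, linear axes). The neutrophil sum is at most 2.51 FPKM in MPTP+exercise libraries and at least 4.79 elsewhere, and MPTP+exercise replicate 2 is highest for both Spp1 and the cholinergic genes.

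Spp1 encodes osteopontin, a secreted phosphoprotein that binds Cd44 and alpha v integrins (chromosome 5, 104435118 to 104441050, plus strand). The annotation places 309 of its exonic bases in Gm42793 on the same strand. Spp1 was at 24.8, 74.7 and 12.9 FPKM in vehicle, 50.6, 51.4 and 22.9 in MPTP and 18.1, 98.8 and 15.1 in MPTP+exercise libraries. The highest library was 7.67 times the lowest, and both lay outside the MPTP group. The differences were 0.42, -0.36 and 0.06 (SE 0.79 each, limma adjusted p of 0.993, 0.9999 and 0.993) for MPTP against vehicle, MPTP+exercise against MPTP and MPTP+exercise against vehicle. For MPTP+exercise against MPTP the ratio of mean FPKM, 1.06, went the other way, since 1 library carried the mean. Cholinergic neuron genes, of cells that in the brainstem also express Spp1, summed to 11.8, 8.79 and 7.94 FPKM in vehicle, 21.5, 16.5 and 13.1 in MPTP and 8.14, 32.4 and 9.90 in MPTP+exercise libraries. Their part in the Spp1 levels was not tested. Cd44 was at 0.535 ± 0.123, 0.50 ± 0.215 and 0.512 ± 0.0846 FPKM and Itgav at 7.48 ± 0.783, 7.45 ± 0.990 and 6.78 ± 1.03.

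Lpl encodes lipoprotein lipase, which releases fatty acids from triglyceride-rich particles (chromosome 8, 68880491 to 68907448, plus strand). It was at 0.770, 0.940 and 1.01 FPKM in vehicle, 1.08, 1.57 and 1.15 in MPTP and 1.28, 1.31 and 2.46 in MPTP+exercise libraries. All 6 libraries of toxin-treated mice lay above all vehicle libraries, and the highest was MPTP+exercise replicate 3. MPTP exceeded vehicle by 0.25 (SE 0.17, limma adjusted p = 0.991) and MPTP+exercise exceeded vehicle by 0.47 (SE 0.17, limma adjusted p = 0.753), which became 0.27 without MPTP+exercise replicate 3. MPTP+exercise against MPTP gave 0.22 (SE 0.17, adjusted p = 0.9999) with overlap, and 0.0234 without MPTP+exercise replicate 3. The sum of 6 oligodendrocyte precursor genes was 39.9 to 45.3, 38.1 to 45.4 and 34.4 to 53.5 FPKM in the 3 groups, and 40.8 in MPTP+exercise replicate 3. Of the partners of the enzyme, Gpihbp1, which carries it to the vessel lumen, was listed at 0 in 5 libraries and reached 0.124 FPKM, and its inhibitor Angptl4 was at 0.623 ± 0.234, 0.534 ± 0.151 and 0.572 ± 0.0584.

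Read together against vehicle, the MPTP group was higher for 10 of 10 genes and for 6 of 6 tested ones, where 48.1% of all tested genes were higher by any amount. The 10 were chosen with earlier results of these data known, so these counts are a description and not a test. The median difference was 0.11 over the 10 genes and 0.26 over the 6, against -0.01 over all tested genes. The groups did not overlap, with MPTP higher, for 2 of the 6 (Cd52 and Lpl), a background of 5.2%, and for Clec7a below the filter. The count of 10 rests in part on small differences: leaving out 1 library turned Cst7 from 0.0316 to -0.0262 (without MPTP replicate 2), Gpnmb from 0.0358 to -0.0816 (without vehicle replicate 1) and Spp1 from 0.42 to -0.14 (without vehicle replicate 3). At an unadjusted p under 0.05 only Cd52 was higher, against 2.61% of all genes. With the replicate number, which carries no stated meaning, as a block Lyz2 was under 0.05 as well (difference 0.27, limma adjusted p = 0.955). Each MPTP library was above the vehicle library of the same number for Lyz2, but no pairing of libraries is given. The Lyz2 groups overlapped in FPKM, and the main fit, which had no block, gave a limma unadjusted p of 0.0702. Of the 17 alternatives, 3 gave an unadjusted limma p under 0.05 for Lyz2 here, the block among them. None of these passed the adjusted threshold. At the adjusted threshold limma called 0 of the 10 and 2 of all genes (0.0125%).

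**Figure D3:**
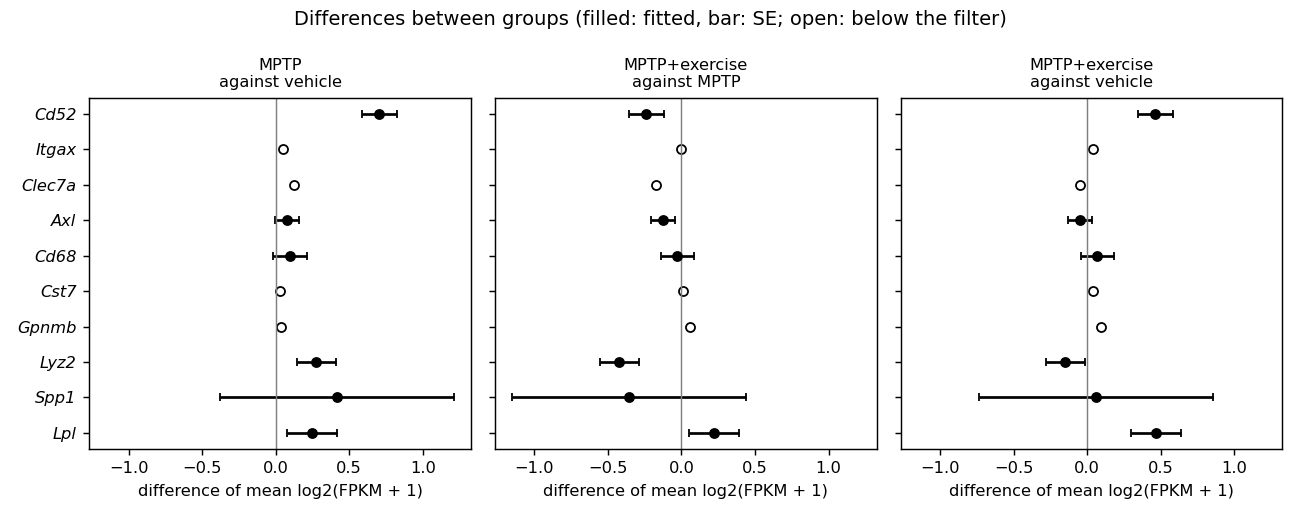
Differences between group means of log2(FPKM + 1) for the 10 genes in the 3 comparisons; filled points are fitted with limma and carry SE bars, open points are genes below 0.5 FPKM with no fit, and the grey line marks no difference. Cd52 is at 0.70 and 0.46 against vehicle, Lyz2 at -0.42 for MPTP+exercise against MPTP, and the bars of Spp1 span 0 in all panels.

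Between MPTP+exercise and MPTP, which asks how mice that ran differed from mice that received the toxin alone, 7 of the 10 genes were lower and 3 higher (5 and 1 of the 6 tested), where 54.3% of all tested genes were lower. The median was -0.08 over the 10 and -0.18 over the 6, against -0.01 over all tested genes. Over the 10 it went to -0.0309 without MPTP+exercise replicate 1 and to -0.12 without MPTP replicate 3. Lyz2 was the 1 gene without overlap, against a background of 5.36% lower without overlap, and the 1 gene lower at an unadjusted p under 0.05 (2.89% of all genes). No gene passed the adjusted threshold (limma, 0% of 15997, with 639 at an unadjusted p under 0.05).

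Against vehicle, MPTP+exercise was higher for 7 of the 10 genes (4 of 6 tested; 44.7% of all tested genes were higher). Cd52 and Lpl were higher without overlap (background 6.38%) and at an unadjusted p under 0.05 (3.12%). Again 0 genes passed the adjusted threshold (0%, limma, with 1047 at an unadjusted p under 0.05).

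The rest of the disease-associated programme was read from 26 further genes, of which 22 were tested. In MPTP against vehicle 18 of the 22 were higher (48.1% of all tested genes) and 4 lower, with a median of 0.13 (-0.01 over all), and 5 were higher without overlap (5.2% of all). At an unadjusted limma p under 0.05, 3 were higher (2.61% of all) and 0 lower, and none passed the adjusted threshold. Ctsd, the lysosomal aspartic protease cathepsin D, was at 142 ± 1.13 FPKM in vehicle, 174 ± 4.75 in MPTP and 149 ± 5.93 in MPTP+exercise mice (808 of its exonic bases are shared with Gm49369 on the same strand). Cd63, a tetraspanin of late endosomes, was at 9.60 ± 0.613, 12.1 ± 0.200 and 11.2 ± 0.308, and the cathepsin Ctsz at 21.3 ± 1.41, 26.9 ± 3.07 and 22.6 ± 0.805. For these 3 genes every MPTP library was above every vehicle library and every MPTP+exercise library.

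Other members of that list did not share this order. Trem2 was at 1.87 ± 0.546, 2.07 ± 0.457 and 1.95 ± 0.242 FPKM, Tyrobp at 13.04 ± 2.65, 17.0 ± 5.88 and 16.0 ± 2.31, and the lipid carrier Apoe, which astrocytes also make, at 295 ± 65.0, 288 ± 65.7 and 320 ± 26.5. Igf1, a growth factor, was at 1.58 ± 0.470, 1.08 ± 0.0667 and 0.972 ± 0.181, and the protease inhibitor Serpine2 at 27.8 ± 3.79, 23.2 ± 3.19 and 24.3 ± 2.28. These groups overlapped. In MPTP+exercise against MPTP 17 of the 22 were lower (54.3% of all tested genes), with a median of -0.07. Of these, 4 were without overlap (5.36% of all) and 3 at an unadjusted limma p under 0.05 (2.89% of all): Ctsd, Ctsz and Grn, the lysosomal protein progranulin, at 9.63 ± 0.989, 11.3 ± 1.36 and 8.89 ± 0.457 FPKM.

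**Figure D4:**
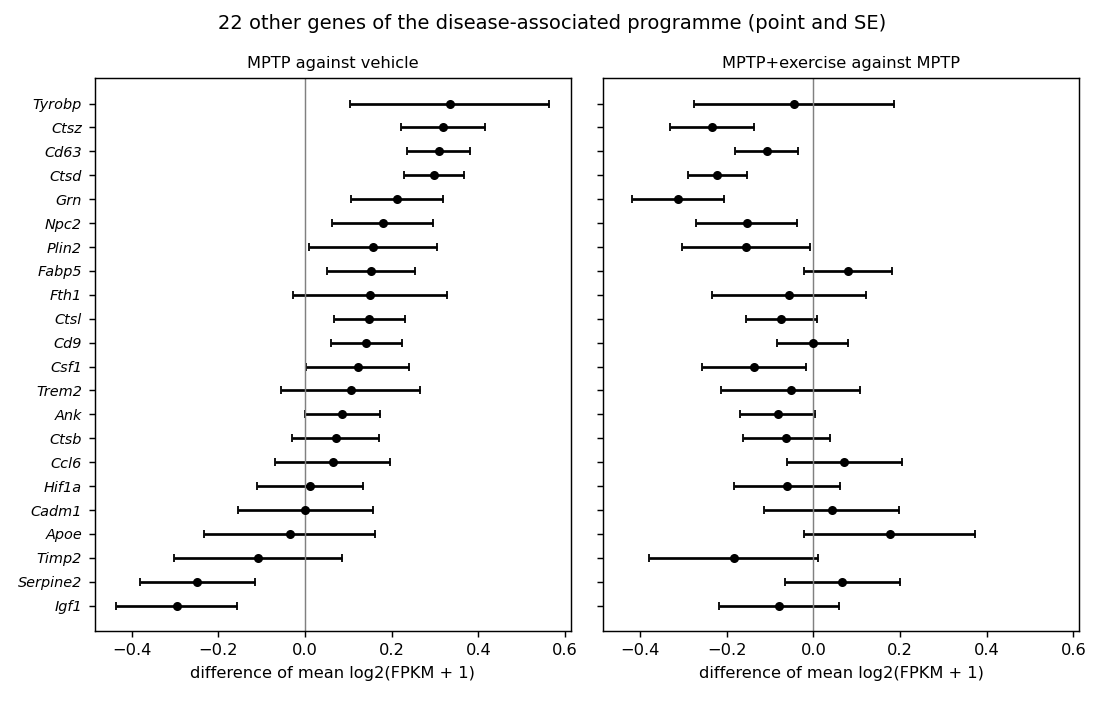
Differences between group means of log2(FPKM + 1), with SE bars from limma, for the 22 tested genes of the wider disease-associated list in MPTP against vehicle and MPTP+exercise against MPTP, ordered by the first. In the left panel 18 points lie above 0 and 4 below, and in the right panel 17 lie below 0; both panels use the MPTP libraries.

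The 12 resting microglia genes, which the disease-associated state lowers, gave 9 higher and 3 lower in MPTP against vehicle (median 0.08, 0 at an unadjusted limma p under 0.05). Of all tested genes 48.1% were higher. P2ry12, the purine receptor of resting microglia, was at 7.91, 8.32 and 4.72 FPKM in vehicle, 5.01, 5.44 and 4.26 in MPTP and 7.16, 6.27 and 12.5 in MPTP+exercise libraries. It was higher in every MPTP+exercise library than in any MPTP library (difference 0.66, limma adjusted p = 0.9999), and MPTP overlapped vehicle. P2ry12 was the only gene of the 12 without overlap between MPTP+exercise and MPTP. In that comparison 4 of the 12 were higher and 8 lower (median -0.07), where 54.3% of all tested genes were lower. Tmem119 was at 6.57 ± 0.650, 7.32 ± 1.09 and 7.01 ± 0.944 FPKM, with overlap.

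The 35 receptors, ligands and regulators of the 10 genes included 28 tested ones. Of these, 21 were higher in MPTP than in vehicle (48.1% of all tested genes) and 21 lower in MPTP+exercise than in MPTP (54.3% of all). Both comparisons use the MPTP libraries. At an unadjusted limma p under 0.05, Gas6 and Ctsc were higher in the first comparison (2.61% of all) and lower in the second (2.89% of all). No other was, and none passed the adjusted threshold. Spi1, which encodes PU.1, the factor that specifies macrophages and microglia, was at 1.07 ± 0.169, 1.08 ± 0.0999 and 0.969 ± 0.0719 FPKM.

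Short sequence motifs were counted in the RefSeq promoters (GRCm38.p6, 250 bases before to 50 after the start site, both strands), where 8 of the 10 genes matched and Cd52 and Lpl did not. The PU.1 letters GAGGAAGT were found in Spp1, and in 3.20% of 32851 promoters. They start at position -113 from the Spp1 start site and contain the shorter ETS letters AGGAAGT, which were also in Cst7 and Lyz2 (9.35% of promoters). The Spp1 stretch on the plus strand of chr5:104434958-104435045, with the PU.1 letters in capitals, reads:
Spp1 promoter stretch: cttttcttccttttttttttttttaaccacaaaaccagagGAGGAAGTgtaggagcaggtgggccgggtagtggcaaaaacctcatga

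The AP-1 letters TGANTCA were in 4 of the 8 promoters (Cd68, Cst7, Gpnmb and Itgax) and in 7.81% of all promoters, and the interferon-stimulated response element was in Spp1 (3.44% of all). The E-box letters CACGTG (7.15%) and CATGTG (14.2%), which MITF family factors can bind, were in none of the 8. The TATA letters TATAAA were in Clec7a and Spp1 (13.6%). These are matches of letters and show neither binding nor use.

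The genes whose pattern over the 9 libraries was most like that of each tested gene were read as a description (Pearson correlation of log2(FPKM + 1), n = 9 libraries that share depth and tissue composition, 12273 candidates). For Cd52 they were Txndc17 (0.932), Cd63-ps (0.930) and B2m (0.930), the light chain of class I MHC, which was at 71.4 ± 8.18 FPKM in vehicle, 157 ± 33.8 in MPTP and 102 ± 8.67 in MPTP+exercise mice. For Lyz2 they were the complement inhibitor Serping1 (0.940), Tagln2 (0.927) and the granule proteoglycan Srgn (0.919). Spp1 was followed most closely by Car13 (0.988), Vwa7 (0.979) and St3gal6 (0.965), and Vwa7 was at 2.03 FPKM in vehicle replicate 2 and 2.80 in MPTP+exercise replicate 2, the 2 libraries highest for Spp1. Axl was most like Nxpe4 (0.924), Slc25a34 (0.918) and Dolpp1 (0.906), Cd68 like Ltc4s (0.953), Eif5b (0.890) and Zfp960 (0.887), and Lpl like Thg1l (0.952), Bysl (0.941) and Rpl17-ps5 (0.928).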

How the data were processed

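Total RNA was enriched for mRNA on beads and sequenced on an Illumina NovaSeq6000, per the labels' protocols. The authors deposited 1 table of FPKM values for 55335 genes in 9 libraries. Bcl2fastq, HTSeq and DESeq2 (no versions) and the build GRCm38 are named per the submitters' processing notes, while no aligner, FPKM tool or strandedness was given in the sources used here. Symbols, loci and exon overlaps came from GENCODE M21 (55154 genes matched) and promoters from RefSeq.

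A single limma-trend fit of log2(FPKM + 1) took all 9 libraries and the 15997 genes averaging 0.5 FPKM or more. Two-sided p were adjusted by Benjamini-Hochberg over these genes, at a threshold of 0.05. The fit was tested on simulated data. The 10 genes, the marker lists and the motifs were chosen with earlier results of these data known, and the ETS letters after the sequences were read. All 10 genes were named, with Trem2, Tyrobp, Apoe and, of the lists, the first 2 genes and those of smallest p where a result turned on them. Fragments per library were estimated from steps between low FPKM values, drawn from 19516 genes. Only the lowest values above 0 were scored. Of these, 43.4% to 45.9% per library lay within 2% of a whole number of steps, so the estimate is rough.

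Replicate numbers carry no stated meaning. Deviations from the group means in MPTP and vehicle libraries of the same number correlated at 0.25, 0.33 and 0.11 for replicates 1 to 3. Those of MPTP+exercise and MPTP correlated at -0.34, -0.13 and 0.25, and those of MPTP+exercise and vehicle at -0.26, 0.01 and 0.24. No library pair was identical. Alternatives changed the pseudocount, filter, scaling, weights, libraries and block. Versions were limma 3.58.1 (R 4.3.3), and scipy 1.17.1, numpy 2.4.6, pandas 2.3.3 and matplotlib 3.10.9 (Python 3.11.15).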

Additional observations from a re-analysis of the deposited data

How the results depend on the processing

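None of the 10 genes was called in any of the 17 alternatives, and of the 6 tested genes Cd52, Axl, Lyz2 and Lpl kept their sign in all of them. With a pseudocount of 0.1 FPKM the median of the 10 genes in MPTP against vehicle was 0.30 in place of 0.11, as low genes weigh more. Over all genes, the count called in MPTP against vehicle was 0 with only the 2 groups compared and 0 to 32 when 1 library was left out (32 without MPTP replicate 1). In MPTP+exercise against MPTP it was 3 with no filter, 1 with the same sum in every library, 1 with array weights and 0 to 25 when 1 library was left out (25 without MPTP replicate 1). In MPTP+exercise against vehicle it was 0 to 2 when 1 library was left out. The cause was not tested. With the replicate block 3 genes were called in MPTP against vehicle in place of 2, and the call of none of the 10 genes changed at the adjusted threshold.

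Of the tested genes, Spp1 and Cd68 changed sign; the ranges given here are over analyses that leave out 1 library. Spp1 ranged from -0.14 (without vehicle replicate 3) to 1.08 in MPTP against vehicle, from -1.19 to 0.12 (without MPTP+exercise replicate 3) in MPTP+exercise against MPTP, and from -0.78 (without MPTP+exercise replicate 2) to 0.73 in MPTP+exercise against vehicle, where it was also negative without vehicle replicate 1 (-0.0494) or 3 (-0.50), with the same sum (-0.0224) and with array weights (-0.61). Cd68 ranged from -0.0929 to 0.0689 in MPTP+exercise against MPTP, positive without MPTP replicate 1 or MPTP+exercise replicate 2, and was -0.000798 in MPTP+exercise against vehicle with the same sum. The cause of these reversals was not tested. Below the filter, signs turned as well when 1 library was left out: in MPTP against vehicle for Cst7 (-0.0262 to 0.0680) and Gpnmb (-0.0816 to 0.14), in MPTP+exercise against MPTP for Itgax (-0.0456 to 0.0323, and also with a pseudocount of 0.1 FPKM, quantile normalization or array weights) and Cst7 (-0.0282 to 0.0694), and in MPTP+exercise against vehicle for Clec7a (-0.11 to 0.0279) and Gpnmb (-0.0258 to 0.20). Depth limits Cst7, Itgax and Clec7a, which rest on few fragments.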

Other observations

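All 8 endothelial genes had a lower mean in MPTP+exercise than in MPTP libraries (54.3% of all tested genes did). The median difference was -0.29, 5 of the 8 were without overlap (5.36% of all), 6 were at an unadjusted limma p under 0.05 (2.89% of all) and none passed the adjusted threshold. Cldn5, a tight junction protein of brain endothelium, was at 14.7 ± 1.82 FPKM in vehicle, 17.7 ± 0.835 in MPTP and 13.3 ± 1.76 in MPTP+exercise mice, and the adhesion molecule Pecam1 at 3.87 ± 0.393, 4.02 ± 0.358 and 2.81 ± 0.443. The 8 fibroblast genes had lower means as well (median -0.41), with 3 at an unadjusted limma p under 0.05 (2.89% of all) and none past the adjusted threshold. Col1a1, a fibrillar collagen chain, was at 2.69 ± 1.19, 2.12 ± 0.586 and 1.05 ± 0.207 FPKM.

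Astrocyte and oligodendrocyte precursor lists showed no common direction in MPTP against vehicle (3 of 6 and 2 of 6 higher, and 48.1% of all tested genes). Gja1, a gap junction protein of astrocytes, was at 25.8, 13.8 and 8.08 FPKM in MPTP libraries against 25.1 ± 1.87 in vehicle and 24.2 ± 0.620 in MPTP+exercise mice. Of 8 dopaminergic genes 5 were higher and 3 lower in MPTP against vehicle, none at an unadjusted limma p under 0.05 among the 7 tested.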
